A study of Mus musculus with 9 samples.

Results

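The SR and hnRNP splicing regulators described here are 38 genes among the 54232 Ensembl gene rows of the expression table. They were taken by name, with no measured value in the rule: every protein-coding gene of GENCODE release M21 called Srsf with a number (11 genes), every one whose symbol begins with Hnrnp (20 genes), and the 7 regulators Esrp1, Esrp2, Rbfox2, Ptbp1, Ptbp2, Mbnl1 and Mbnl2. All 38 passed the filter on low counts and were tested, so no member was dropped. Their messenger RNA was followed in embryoid bodies, three-dimensional aggregates of differentiating pluripotent cells, grown from mouse embryonic stem cells. The 3 groups carry the labels EBD2, EBD5 and EBD6 differentiation, with 3 libraries each, and all are wild type (WT) with no other agent or allele named. The labels give no strain, no line name and no unit for the number in the group name, and they call the cells of every group embryonic stem cells.

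SR proteins bind exons through RNA recognition motifs and recruit the spliceosome through a tail rich in arginine and serine, which kinases of the SRPK and CLK families phosphorylate. The hnRNP proteins coat nascent transcripts, and many of them silence splice sites or loop exons out, so that the balance between both families helps to set which exons are kept. A smaller set of regulators adds tissue specificity: ESRP proteins drive epithelial exons, MBNL proteins repress exons typical of pluripotent cells, RBFOX2 acts in embryonic stem cells and in several differentiated tissues, and PTBP1 represses neural exons and the productive splicing of its paralogue Ptbp2. Many SR and hnRNP genes also limit their own output through exons that send the transcript to nonsense-mediated decay. A count per gene, as used here, adds up all isoforms and does not separate productive from unproductive ones.

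Depth ran from 5453412 to 11703371 counts a library. Replicates 1 and 2 of EBD2, at a chi-square of 0.949 per gene, and replicates 2 and 3 of EBD6, at 1.01, did not differ beyond the sampling noise (about 1 per gene), whereas other pairs of a group reached 1.21 to 4.31. Each such pair was counted as 1 sample, so that every mean ± SD below has n = 2 in EBD2, 3 in EBD5 and 2 in EBD6. Separate cultures are not mentioned in the labels, and the p-values therefore measure only how these samples vary, which may be technical variation. The EBD5 libraries stood apart in 3 RNA classes. Nuclear ribosomal RNA took 0.726 to 0.811% of their counts against at most 0.0247% elsewhere, mitochondrial ribosomal RNA 0.52 to 0.546% against at most 0.0168%, and processed pseudogenes 1.12 to 1.14% against at most 0.347%. Pluripotency and epiblast markers (Pou5f1, Sox2, Nanog, Zfp42, Utf1 and Fgf5) were present in every group, summing to 1153 to 1306 CPM (counts scaled to a common library size) in EBD2, 977 to 1044 in EBD5 and 778 to 881 in EBD6. Of these 6 markers 2 rose and 2 fell from EBD2 to EBD5, and 1 rose and 3 fell from EBD5 to EBD6. Visceral endoderm markers summed to at most 32.8 CPM in EBD2 against 3237 to 3264 in EBD5 and 1681 to 1805 in EBD6. All 8 of them were higher in EBD5 than in EBD2, and from EBD5 to EBD6 2 rose and 5 fell. In such bulk RNA fewer cells of a type and less RNA per cell cannot be told apart.

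The RefSeq table of promoter windows (build GRCm38.p6, 250 bases before to 50 after each start) held windows for 33 of the 38 members. The stretches printed here belong to members that were higher (Srsf5, Hnrnpf, Hnrnpa3, Hnrnpa1) or lower (Hnrnpd, Hnrnpul1) in EBD5 than in EBD2, and are limited to bases in no annotated exon. Capitals mark a GC box (GGGCGG, or CCGCCC on the other strand) and a CCAAT box (CCAAT, or ATTGG on the other strand), and overlapping boxes run together.
Srsf5: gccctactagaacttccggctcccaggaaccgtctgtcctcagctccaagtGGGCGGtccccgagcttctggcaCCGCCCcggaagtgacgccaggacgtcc
Hnrnpf: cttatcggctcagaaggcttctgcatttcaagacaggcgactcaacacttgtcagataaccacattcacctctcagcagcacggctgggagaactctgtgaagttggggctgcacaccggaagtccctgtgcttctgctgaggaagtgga
Hnrnpa3: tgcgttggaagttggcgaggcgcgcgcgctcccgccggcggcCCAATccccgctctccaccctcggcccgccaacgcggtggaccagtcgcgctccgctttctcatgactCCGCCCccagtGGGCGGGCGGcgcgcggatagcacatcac
Hnrnpa1: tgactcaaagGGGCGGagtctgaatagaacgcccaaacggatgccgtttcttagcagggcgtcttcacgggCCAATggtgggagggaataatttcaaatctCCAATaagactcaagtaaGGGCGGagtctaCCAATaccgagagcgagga
Hnrnpd: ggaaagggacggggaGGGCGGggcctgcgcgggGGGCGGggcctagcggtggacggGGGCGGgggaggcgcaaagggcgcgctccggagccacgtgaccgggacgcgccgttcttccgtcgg
Hnrnpul1: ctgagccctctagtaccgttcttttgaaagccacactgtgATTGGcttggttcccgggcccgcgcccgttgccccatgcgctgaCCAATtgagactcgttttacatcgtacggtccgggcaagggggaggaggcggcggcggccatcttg
The Srsf5 stretch lies at chr12:80945397-80945498 on the plus strand and holds 2 GC boxes. The Hnrnpf stretch, before the start of 1 of its 4 RefSeq windows, lies at chr6:117900174-117900323 on the plus strand and holds neither box. Hnrnpa3 (chr2:75659094-75659243, plus strand) has 3 GC boxes and 1 CCAAT box, and Hnrnpa1 (chr15:103240247-103240396, plus strand) has 2 GC boxes and 3 CCAAT boxes. Hnrnpd (chr5:99978939-99979060, minus strand) has 3 GC boxes, and Hnrnpul1 (chr7:25754760-25754909, minus strand) has 2 CCAAT boxes. Over the full windows a GC box was found in 28 of 33 members (84.8%), against 68.1% of 11230 tested genes and 38.2% of all 27025 genes with a window. A CCAAT box was found in 60.6% of members, 43.1% of tested genes and 41.1% of all. A TATA box (TATAAA, either strand) was found in 15.2%, 8.9% and 15.7%. An ETS site (CCGGAAG, either strand) was found in 18.2%, 19.1% and 9.9%, and an E-box (CACGTG) in 21.2%, 11.6% and 8.1%. These are matches of letters in a window and describe no binding.

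Per kilobase of exon, levels of the members ran from 2.01 CPM per kb for Srsf12 to 212 for Hnrnpab, as the mean of the 3 groups. After Hnrnpab followed Hnrnpa2b1 (158), Hnrnpa1 (134), Srsf2 (122) and Srsf1 (101), and at the low end stood Esrp2 (5.15), Mbnl1 (2.78) and Srsf12. Hnrnpab, a relative of Hnrnpd that binds RNA and single-stranded DNA, measured 251 ± 19 CPM per kb in EBD2, 207 ± 14.6 in EBD5 and 178 ± 16.1 in EBD6. Hnrnpa2b1, a binder of purine-rich motifs, measured 168 ± 20.5, 184 ± 10.2 and 122 ± 19.6 CPM per kb in the same order. Hnrnpa1 measured 123 ± 18.9, 202 ± 13.5 and 77 ± 10.5 CPM per kb. The order at the top thus changed with the group. In EBD5 Hnrnpa1 and Hnrnpab lay within their SDs of each other. In EBD6 Hnrnpa1 lay below Srsf2 (107 ± 5.77), and it and Srsf1 (86.6 ± 8.76) lay within their SDs of each other. At the low end Mbnl1 (4.14 ± 0.356) and Esrp2 (4.17 ± 0.284) lay within their SDs of each other in EBD5.

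**Figure D1:**
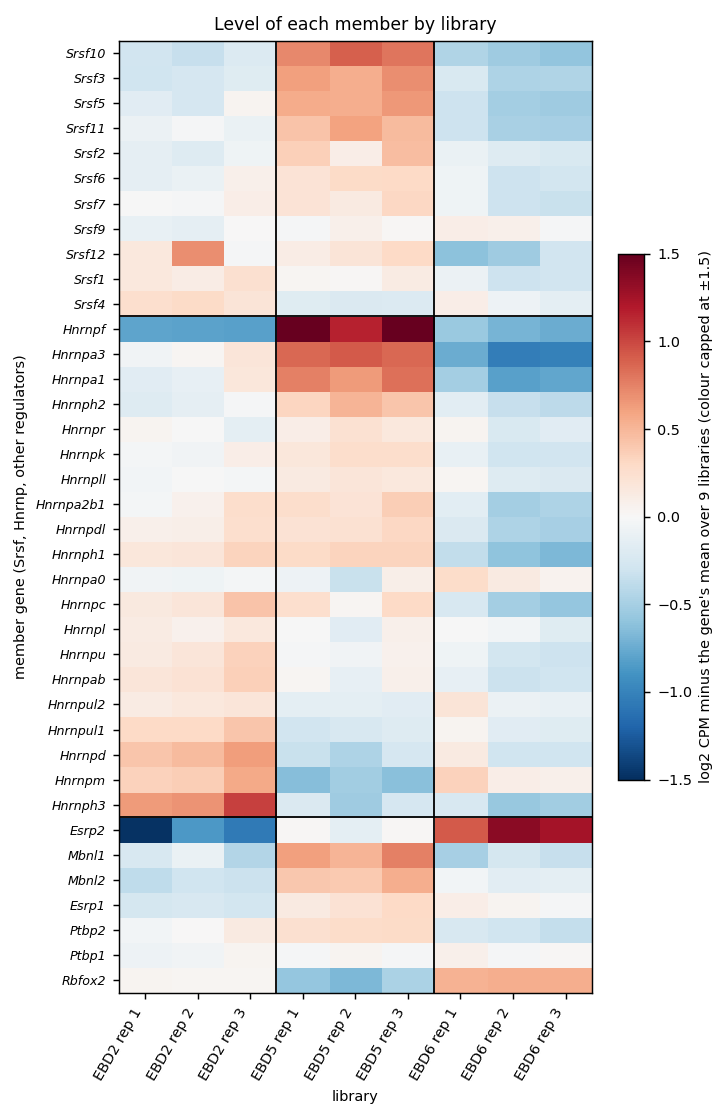
Colour shows the level of each of the 38 members in each of the 9 libraries as log2 CPM minus the gene's mean over the libraries, capped at 1.5 in either direction, with Srsf genes on top, Hnrnp genes in the middle and the 7 other regulators below. Hnrnpf is high in the 3 EBD5 libraries (169.9 to 238 CPM) and Esrp2 in the 3 EBD6 libraries (35.2 to 47.2 CPM).

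Between EBD2 and EBD5 the members split, with 17 higher in EBD5, 9 lower and 12 that did not pass (edgeR, adjusted p under 0.05). Of 11 SR genes 6 were higher and 1 lower. The hnRNP genes divided evenly, 6 higher and 7 lower of 20, and 5 of the 7 other regulators were higher and 1 lower. Hnrnpf showed the largest rise, 4.81-fold, and Hnrnph3 the largest fall, 2.28-fold. Changes were common in this comparison: 70.0% of the 16168 tested genes passed, 34.9% higher and 35.1% lower, against 44.7% and 23.7% of members. The median log2 fold change of members was 0.13, beside -0.01 over all tested genes. Past a fold of 1.5 (edgeR's glmTreat) 7 members were higher and 3 lower, where 34.7% of all genes passed, 18.4% higher and 16.3% lower. Libraries of the groups did not overlap for 28 members, and for 77.7% of all tested genes. An alternative fit used offsets that take out the dependence on GC content and length, called the offsets below. It gave 14 members higher and 12 lower and a members' median of 0.001, where 33.8% of 13746 genes were higher and 34% lower. The SR genes then gave 5 higher and 2 lower, and the hnRNP genes 5 higher and 9 lower.

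Between EBD5 and EBD6 more SR and hnRNP genes were lower in EBD6 than higher. Of the 38 members 23 were lower and 8 higher (edgeR, adjusted p under 0.05), against 33.3% lower and 36.9% higher among all tested genes, of which 70.2% passed. By family, 9 of 11 SR genes were lower and 1 higher, 11 of 20 hnRNP genes lower and 5 higher, and 3 of the other 7 lower and 2 higher. Hnrnpf, Hnrnpa3, Hnrnpa1 and Srsf10 fell most, and Esrp2 and Rbfox2 rose most. The median log2 fold change of members was -0.41, beside 0.04 over all tested genes. Past a fold of 1.5, 9 members were lower and 3 higher, where 32.9% of all genes passed, 15.3% lower and 17.6% higher. Libraries did not overlap for 32 members and for 76.1% of all tested genes. The count of 8 higher members rested on small changes: it was 4 without EBD5 replicate 1, 3 without EBD5 replicate 2, 4 without EBD5 replicate 3 and 3 without EBD6 replicate 1. Under the offsets the members' median was -0.20, with 19 lower and 8 higher, where 31.1% of all genes were lower and 32.2% higher. The SR genes then gave 5 lower and 1 higher, and the hnRNP genes 10 lower and 5 higher.

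Between EBD2 and EBD6 no Srsf or Hnrnp gene passed as higher in EBD6, while 20 of these 31 genes were lower (edgeR, adjusted p under 0.05). The count of 0 higher was the same at an unadjusted p under 0.05 and by DESeq2 and limma-voom, and no alternative gave more than 1. The SR genes gave 7 lower of 11 and the hnRNP genes 13 lower of 20, while 4 of the 7 other regulators were higher and 1 lower. Over all tested genes 66.1% passed, 33.8% higher and 32.3% lower. The median log2 fold change was -0.25 for SR genes, -0.43 for hnRNP genes and 0.01 over all tested genes. Past a fold of 1.5, 1 member was higher and 3 lower, where 30.4% of all genes passed, 16.4% higher and 14.0% lower. Libraries did not overlap for 28 members and for 74.1% of all tested genes. Under the offsets 3 SR genes and 12 hnRNP genes were lower and again 0 of the 31 higher, where 35.8% of all genes were lower and 35.3% higher. Small calls rested on EBD2 replicate 3: without it those of Srsf5 (-0.22), Srsf7 (-0.19), Srsf10, Hnrnpk (-0.16) and Hnrnpm were lost.

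**Figure D2:**
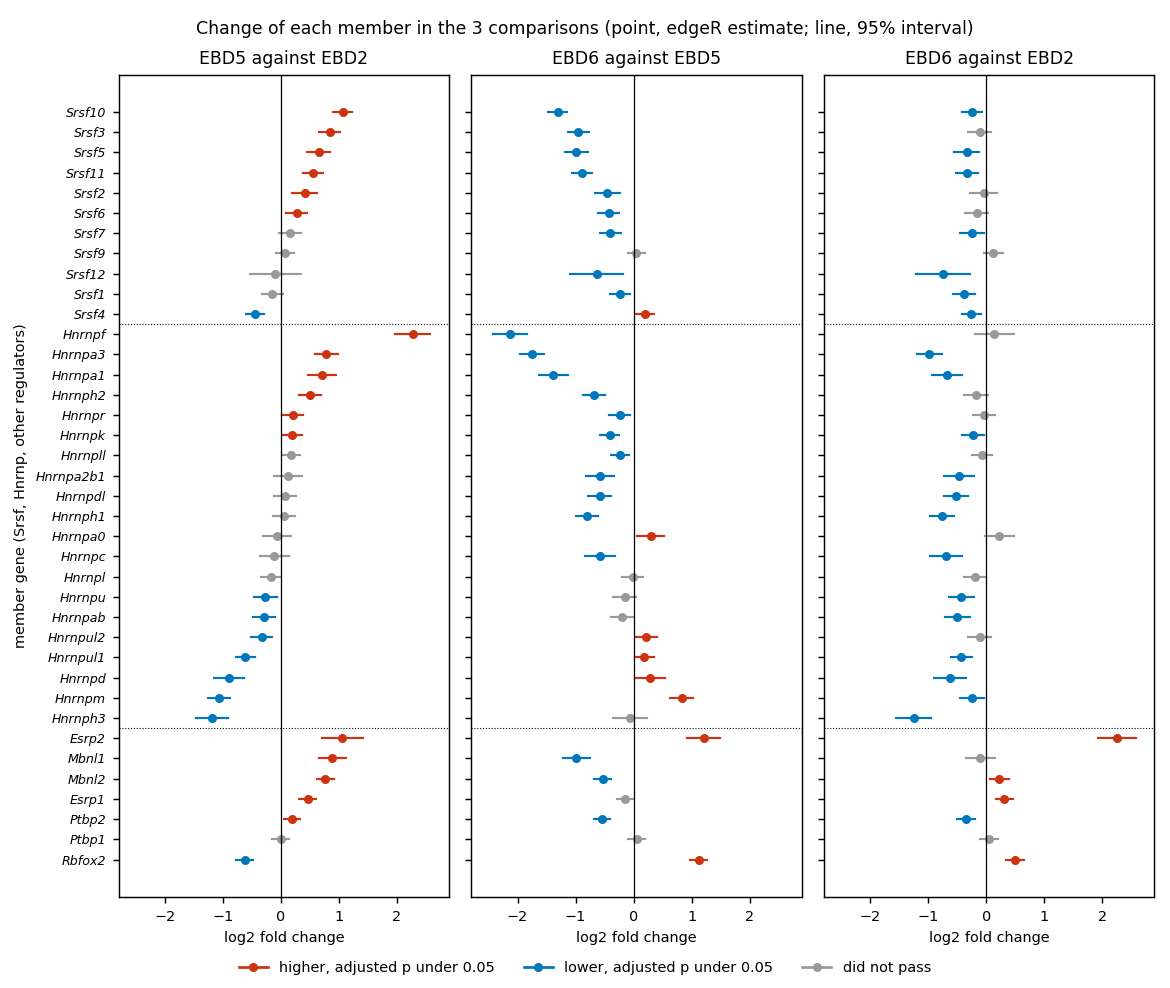
Each row is a member and each panel a comparison; points are edgeR log2 fold changes, lines their 95% intervals, and colour the call at an adjusted p under 0.05. The SR and hnRNP genes lie on both sides of 0 for EBD5 against EBD2 and mostly to the left of 0 in the other panels, where Esrp2 and Rbfox2 lie to the right. Among called members the offsets flip the signs of Hnrnpk, Hnrnpr and Ptbp2 in the left panel, and those of Srsf1, Srsf4, Hnrnpa0, Hnrnpll, Hnrnpr and Hnrnpul1 in the middle panel.

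Among the SR genes Srsf10 changed most in both comparisons with EBD5. It encodes a protein that in its dephosphorylated form acts as a general splicing repressor, and lies at chr4:135855747-135869908 on the plus strand (ENSMUSG00000028676, build mm10). It measured 199, 190.3 and 209.9 CPM in EBD2 replicates 1 to 3, 402, 453 and 422 in EBD5, and 177, 168 and 162 in EBD6. Every EBD5 library lay above every other library, and EBD6 lay just under EBD2. The log2 fold change was 1.06 (SE 0.07, edgeR adjusted p = 3.7e-07) for EBD5 against EBD2 and -1.30 (SE 0.07, edgeR adjusted p = 1.13e-07) for EBD6 against EBD5, the latter -0.84 under the offsets. For EBD6 against EBD2 it was -0.25 (edgeR adjusted p = 0.0182), a call that was lost without EBD2 replicate 3 (-0.20, edgeR adjusted p = 0.105) and under the offsets (-0.06, edgeR adjusted p = 0.476).

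Srsf3, Srsf5 and Srsf11 were also higher in EBD5 than in both other groups. Srsf3, a small SR protein that also serves as an adaptor for messenger RNA export, averaged 282 ± 12.1 CPM in EBD2, 509.9 ± 27.3 in EBD5 and 262 ± 28.8 in EBD6. Srsf5 averaged 258 ± 31.8, 409 ± 16 and 204 ± 20.9 CPM, and Srsf11 357 ± 9.44, 532 ± 33.5 and 286 ± 25.81. Their log2 fold changes for EBD5 against EBD2 were 0.84, 0.65 and 0.56, and for EBD6 against EBD5 -0.95, -0.99 and -0.89 (edgeR adjusted p at most 7.68e-05 in each). The libraries of EBD5 did not overlap those of the other groups for any of the 3. Under the offsets all 6 calls held at smaller sizes, such as 0.53 and -0.46 for Srsf3. Srsf2, long used as a marker of nuclear speckles, and Srsf6 followed at 0.41 and 0.27 for EBD5 against EBD2 and -0.45 and -0.43 for EBD6 against EBD5. Under the offsets Srsf2 stood at 0.26 for EBD5 against EBD2, and the Srsf6 calls did not pass (edgeR adjusted p = 0.377 and 0.115). Srsf2 overlaps Mfsd11 and Mettl23 on the other strand, and the strand setting of the counting is not given in the sources used here.

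The remaining SR genes differed from this group. Srsf4 was lower in EBD5 (114 ± 1.21 CPM) than in EBD2 (154 ± 5.30), a log2 fold change of -0.45 (SE 0.07, edgeR adjusted p = 0.000136). Srsf1, the prototype of the family, measured 644 ± 34.7, 587 ± 25.6 and 494 ± 50.01 CPM in EBD2, EBD5 and EBD6, and was lower in EBD6 than in EBD2 by 0.38 on the log2 scale (edgeR adjusted p = 0.00248, and 0.056 under the offsets). Against EBD2 its value in EBD5 was -0.15, not called, and -0.43 under the offsets (edgeR adjusted p = 0.000448). For EBD6 against EBD5 both genes changed sign under the offsets, Srsf1 from -0.24 to 0.23 and Srsf4 from 0.20 to -0.17. These calls were also lost without EBD5 replicate 3 (-0.20 for Srsf1 and 0.20 for Srsf4), and that of Srsf4 without EBD5 replicate 1, EBD5 replicate 2 or EBD6 replicate 1 (0.12). Srsf7 was lower in EBD6 than in EBD5 (-0.40, edgeR adjusted p = 0.00147), which the offsets reduced to -0.08 (edgeR adjusted p = 0.355). Srsf9 passed in no comparison, at 67 ± 4.28, 70.8 ± 2.20 and 72.7 ± 2.43 CPM.

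Srsf12, a paralogue of Srsf10, was the scarcest member per kilobase. It measured 6.98, 10.2 and 6.20 CPM in EBD2, 6.76, 7.15 and 7.68 in EBD5, and 4.08, 4.35 and 5.14 in EBD6. The EBD6 libraries lay below all others, and EBD2 and EBD5 overlapped. EBD6 differed by -0.74 on the log2 scale from EBD2 (SE 0.21, edgeR adjusted p = 0.00909) and by -0.64 from EBD5 (SE 0.20, edgeR adjusted p = 0.0157), but DESeq2 called neither, and the second was lost under the offsets (-0.42, edgeR adjusted p = 0.0797).

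Summed over the 11 SR genes, levels were 2816 to 3021 CPM in the EBD2 libraries, 3749 to 3967 in EBD5 and 2318 to 2652 in EBD6. Summed over the 20 hnRNP genes they were 7948 to 9050, 8017 to 8692 and 5748 to 6879 CPM. The hnRNP sum was 2.81 to 3 times the SR sum in EBD2, 2.12 to 2.21 times in EBD5 and 2.48 to 2.59 times in EBD6. Without the offsets, the SR sum and the ratio thus separated the 3 groups with no overlap, whereas the hnRNP sums of EBD2 and EBD5 overlapped. The sums were not computed under the offsets. There the SR median log2 fold change went from 0.27 to 0.08 for EBD5 against EBD2. It went from -0.45 to -0.42 for EBD6 against EBD5 and from -0.25 to -0.11 for EBD6 against EBD2. These sums are in CPM, not per kilobase, so only their differences between groups are read, and they were given no test.

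Within the A/B group of hnRNPs, which bind exonic silencers and oppose SR proteins such as SRSF1, Hnrnpa3 and Hnrnpa1 moved together. Hnrnpa3 (ENSMUSG00000059005, chr2:75659261-75669407, plus strand) measured 279, 295 and 328 CPM in EBD2, 525, 549 and 525 in EBD5, and 173, 141 and 143 in EBD6. The 3 groups did not overlap, with EBD5 highest and EBD6 lowest. Its log2 fold changes were 0.78 for EBD5 against EBD2, -1.76 for EBD6 against EBD5 and -0.98 for EBD6 against EBD2 (SE 0.09, 0.09 and 0.10, edgeR adjusted p at most 1.6e-05). Hnrnpa1 (ENSMUSG00000046434, chr15:103240432-103246692, plus strand) measured 339, 349.7 and 429 CPM in EBD2, 645, 592 and 676 in EBD5, and 266, 216 and 222 in EBD6. The order of the groups was the same, and again none overlapped. Its log2 fold changes were 0.71, -1.39 and -0.68 in the same order (edgeR adjusted p at most 0.000461). All 6 calls of this pair held under the offsets, at 0.50, -1.29 and -0.79 for Hnrnpa3 and 0.55, -1.20 and -0.65 for Hnrnpa1.

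Hnrnpa2b1, the second most abundant member per kilobase, measured 981, 1043 and 1203 CPM in EBD2, 1194, 1151 and 1284 in EBD5, and 895, 699.6 and 723 in EBD6. EBD2 and EBD5 overlapped, and EBD6 lay below both, by 0.47 on the log2 scale against EBD2 (edgeR adjusted p = 0.00528). Hnrnpa0, which has no introns, went the other way at 198 ± 2.74, 191 ± 28.1 and 232 ± 20.7 CPM. It was called higher in EBD6 than in EBD5 (0.29, edgeR adjusted p = 0.0258), but the sign turned under the offsets (-0.17), and the call was lost without EBD5 replicate 2 (0.18, edgeR adjusted p = 0.0759) or EBD6 replicate 1 (0.23, edgeR adjusted p = 0.129).

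The F/H group binds runs of guanines, and its 4 genes took different courses. Hnrnpf (ENSMUSG00000042079, chr6:117900324-117925622, plus strand) measured 44.3, 43.7 and 43.4 CPM in EBD2, 232, 169.9 and 238 in EBD5, and 51.8, 47 and 45.5 in EBD6. The EBD5 libraries were the high ones, with EBD5 replicate 2 the lowest of them. Its log2 fold change was 2.27 (SE 0.14, edgeR adjusted p = 1.44e-07) for EBD5 against EBD2 and -2.13 (SE 0.13, edgeR adjusted p = 2.13e-07) for EBD6 against EBD5, and 0.14 with an interval of -0.20 to 0.48 for EBD6 against EBD2. Under the offsets these values were 2.12, -2.16 and -0.04.

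Hnrnph3 (ENSMUSG00000020069, chr10:63014664-63024217, minus strand) was instead high in EBD2 alone. It measured 196, 199.7 and 256 CPM in EBD2, 108, 86.6 and 106 in EBD5, and 106, 84.9 and 87.8 in EBD6. EBD5 and EBD6 overlapped, and both lay below every EBD2 library. Against EBD2 its log2 fold changes were -1.19 for EBD5 (SE 0.12, edgeR adjusted p = 7.99e-06) and -1.25 for EBD6 (SE 0.13, edgeR adjusted p = 1.1e-05). Rufy2, which overlaps Hnrnph3 on the opposite strand, averaged 83.8 ± 0.372, 103 ± 4.82 and 64.6 ± 0.202 CPM in EBD2, EBD5 and EBD6. Against EBD2 its log2 fold change was 0.28 in EBD5 and -0.37 in EBD6, the latter in the direction of Hnrnph3. Whether reads of Rufy2 and Hnrnph3 were told apart was not tested.

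Hnrnph1, the most abundant gene of this group per kilobase, measured 515, 517 and 577 CPM in EBD2, 558, 578 and 577 in EBD5, and 354, 302 and 287 in EBD6. EBD2 and EBD5 overlapped, and EBD6 lay below both, with a log2 fold change of -0.76 against EBD2 (SE 0.09, edgeR adjusted p = 3.24e-05) and -0.81 against EBD5 (edgeR adjusted p = 1.01e-05), the latter -0.34 under the offsets. For EBD5 against EBD2 it did not pass (0.05), and under the offsets it was called in the other direction (-0.23, edgeR adjusted p = 0.0203). Hnrnph2, an X-linked relative of Hnrnph1, averaged 69.6 ± 4.82, 99 ± 6.37 and 62 ± 6.42 CPM and was higher in EBD5 than in EBD2 by 0.50 (edgeR adjusted p = 0.000324, and 0.24 under the offsets) on the log2 scale.

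**Figure D3:**
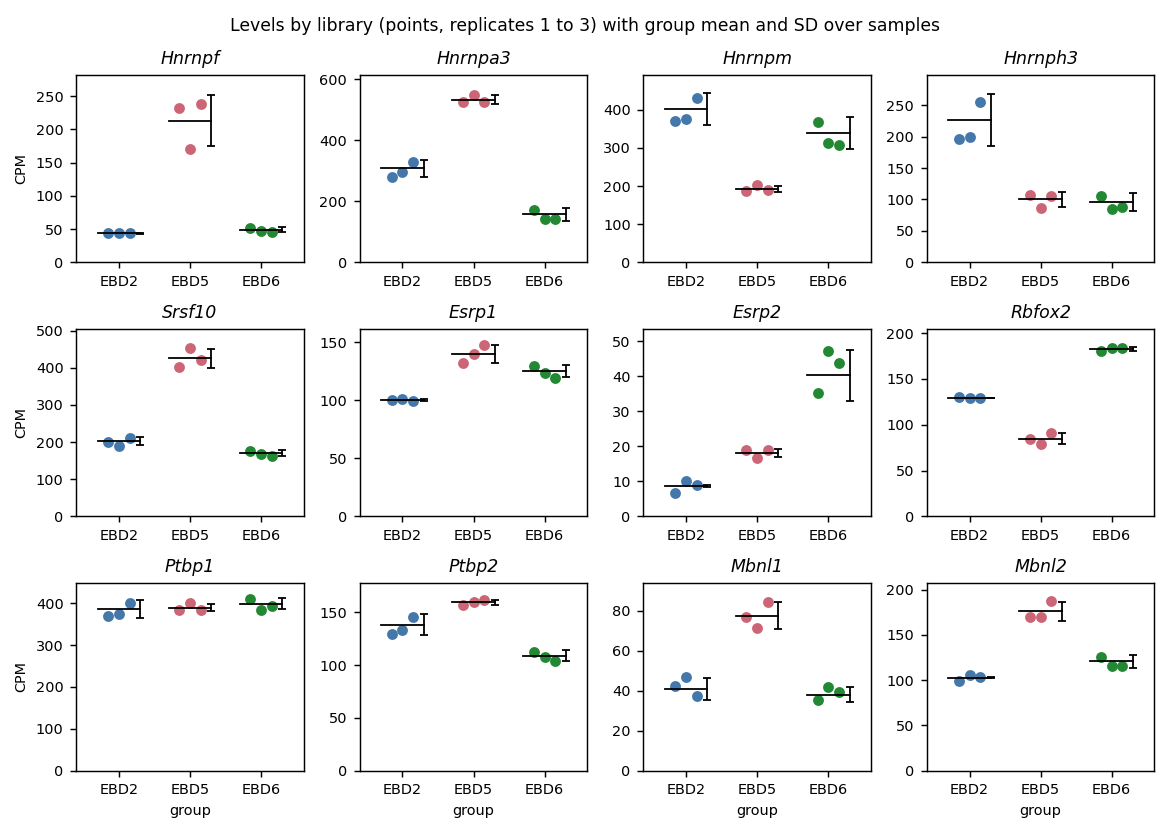
Points are the CPM of 12 members in each library (replicates 1 to 3 from left to right), horizontal lines the group means and bars the SD over samples (n = 2, 3 and 2), on axes that start at 0. Hnrnpf is high in EBD5 alone, Hnrnph3 in EBD2 alone, and Esrp2 climbs from 8.65 in EBD2 to 18.1 in EBD5 and 40.3 in EBD6, while Ptbp1 stays between 369 and 409 CPM in all 9 libraries.

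After Hnrnph3, Hnrnpm and Hnrnpd fell most between EBD2 and EBD5. Hnrnpm (ENSMUSG00000059208, chr17:33646233-33686860, minus strand), which in human mammary cells promotes mesenchymal splice forms against ESRP1, measured 369.8, 375 and 431 CPM in EBD2, 188, 202 and 189 in EBD5, and 369, 313 and 307 in EBD6. The EBD5 libraries lay below all others. Its log2 fold change was -1.07 (SE 0.09, edgeR adjusted p = 1.35e-06) for EBD5 against EBD2 and 0.83 (SE 0.09, edgeR adjusted p = 9.44e-06) for EBD6 against EBD5. For EBD6 against EBD2 it was -0.25 (edgeR adjusted p = 0.0398), a call that was lost without EBD2 replicate 3 (-0.14, edgeR adjusted p = 0.275), EBD5 replicate 1 (edgeR adjusted p = 0.0565), EBD5 replicate 3 (0.0641) or EBD6 replicate 3 (0.0513). The summed level of 7 mesenchymal markers was also lowest in EBD5, at 702 to 731 CPM against 1163 to 1272 in EBD2 and 796 to 821 in EBD6. Most of this sum was Fn1 (1083, 563 and 600.5 CPM). Of the 7 markers 2 rose and 3 fell from EBD2 to EBD5, 4 rose and 1 fell from EBD5 to EBD6, and none was at 0. Unlike the sum, 4 markers were higher and 2 lower in EBD6 than in EBD2, with a median log2 fold change of 0.64. The part of these markers in the Hnrnpm values was not tested. March2, a protein-coding gene, overlaps Hnrnpm on the same strand and held 1941.13 counts over all libraries against 19453.95 for Hnrnpm. March2 averaged 25.5 ± 0.831 CPM in EBD2, 28.8 ± 0.581 in EBD5 and 34 ± 2.18 in EBD6. The expected counts of Hnrnpm were whole in 0 of 9 libraries. Whether reads of March2 and Hnrnpm were told apart was not tested.

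Hnrnpd, which binds AU-rich elements and speeds the decay of many messenger RNAs, measured 413, 432 and 479 CPM in EBD2, 247, 225 and 262 in EBD5, and 339.8, 253 and 252 in EBD6. EBD2 lay above every other library, and EBD5 and EBD6 overlapped. It changed by -0.90 on the log2 scale (SE 0.11, edgeR adjusted p = 3.59e-05) for EBD5 against EBD2 and -0.62 (SE 0.12, edgeR adjusted p = 0.00116) for EBD6 against EBD2. A call of higher in EBD6 than in EBD5 (0.28, edgeR adjusted p = 0.0483) was lost when 7 of the 9 libraries were left out in turn (edgeR adjusted p 0.051 to 0.473), with 0.08 without EBD6 replicate 1, and it was 0.55 under the offsets (edgeR adjusted p = 0.000801). Hnrnpul1 and Hnrnpul2, relatives of Hnrnpu, were lower in EBD5 than in EBD2 by 0.61 and 0.33 (edgeR adjusted p = 2.81e-05 and 0.00357). Their calls of higher in EBD6 than in EBD5, 0.19 and 0.22, were both lost without EBD5 replicate 1, 2 or 3 or EBD6 replicate 1 (0.10 and 0.09), that of Hnrnpul1 also without EBD2 replicate 2 or EBD6 replicate 2. Under the offsets these values were -0.05 and 0.11, neither of them called.

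The genes Hnrnpc, Hnrnpu, Hnrnpab and Hnrnpdl were all lower in EBD6 than in EBD2. Hnrnpc, which binds uridine tracts, measured 412, 422 and 499.8 CPM in EBD2, 445, 379 and 458 in EBD5, and 314, 262 and 248 in EBD6. EBD2 and EBD5 overlapped, and the EBD6 libraries were lowest. In EBD6 its log2 fold change was -0.69 against EBD2 (SE 0.12, edgeR adjusted p = 0.000485) and -0.58 against EBD5 (SE 0.11, edgeR adjusted p = 0.000893). Under the offsets the latter was -0.29, and EBD5 was called lower than EBD2 (-0.30, edgeR adjusted p = 0.0213). Hnrnpab measured 652, 668 and 735 CPM in EBD2, 588, 529 and 608 in EBD5, and 527, 461 and 466 in EBD6, so that the 3 groups did not overlap. Against EBD2 its log2 fold change was -0.29 in EBD5 (edgeR adjusted p = 0.0103, lost without EBD2 replicate 3 at -0.22 and 0.0834, and -0.44 under the offsets) and -0.50 in EBD6 (edgeR adjusted p = 0.00082). Hnrnpu, a scaffold protein of chromatin and nuclear matrix, averaged 1213 ± 111, 1018 ± 42 and 903 ± 101.0 CPM. It was lower in EBD6 than in EBD2 by 0.43 (edgeR adjusted p = 0.00299, and 0.0517 under the offsets). Against EBD5 the Hnrnpu value of -0.16 was not called, and it was 0.34 and called under the offsets (edgeR adjusted p = 0.0073). Hnrnpdl was lower in EBD6 by 0.52 against EBD2 and by 0.58 against EBD5 (edgeR adjusted p = 0.000613 and 0.000129).

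Among the other hnRNP genes the largest log2 fold change was -0.415, for Hnrnpk in EBD6 against EBD5 (edgeR adjusted p = 0.000595). It was -0.14 and not called under the offsets, and -0.77 with the counts of its processed pseudogene copies added, as described below. Hnrnpk, a binder of cytosine-rich RNA, averaged 476 ± 32.1, 548 ± 20.9 and 407 ± 35.6 CPM, and its call of higher in EBD5 than in EBD2 (0.19, edgeR adjusted p = 0.0488) turned to -0.02 under the offsets and was lost without EBD5 replicate 1 (0.0515), EBD5 replicate 2 (0.0986), EBD5 replicate 3 (0.123) or EBD6 replicate 2 (0.0523). Hnrnpr gave 0.20 for EBD5 against EBD2 (edgeR adjusted p = 0.0432) and -0.24 for EBD6 against EBD5 (edgeR adjusted p = 0.02), and both turned sign under the offsets (-0.11 and 0.26). The first of these calls was lost without EBD2 replicate 3 (0.13, edgeR adjusted p = 0.286), EBD5 replicate 2 (0.0949) or EBD5 replicate 3 (0.0826). Hnrnpl, which binds CA repeats, passed in no comparison, with an interval of -0.35 to 0.00 for EBD5 against EBD2, but under the offsets it was called lower in EBD6 than in EBD5 (-0.47) and than in EBD2 (-0.45, edgeR adjusted p = 0.000933 and 0.00166). Its paralogue Hnrnpll was called lower in EBD6 than in EBD5 (-0.24, edgeR adjusted p = 0.0104) and higher under the offsets (0.26, edgeR adjusted p = 0.00322). Within EBD6 the summed hnRNP level was 6879 CPM in replicate 1 against 5827 and 5748 in replicates 2 and 3.

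Of the 7 regulators outside both families, the epithelial factors Esrp1 and Esrp2 were higher in EBD5 and EBD6 than in EBD2. Esrp2 (ENSMUSG00000084128, chr8:106130319-106136974, minus strand) measured 6.64, 10.2 and 8.86 CPM in EBD2, 18.8, 16.7 and 18.8 in EBD5, and 35.2, 47.2 and 43.8 in EBD6. The groups did not overlap and rose in that order. Its log2 fold change was 1.05 (SE 0.16, edgeR adjusted p = 0.000138) for EBD5 against EBD2, 1.21 (SE 0.13, edgeR adjusted p = 7.66e-06) for EBD6 against EBD5 and 2.26 (SE 0.15, edgeR adjusted p = 2.57e-07) for EBD6 against EBD2. Under the offsets the steps were 1.5 and 0.51 and the total 2.01, so both steps moved more than the total. Nfatc3, which overlaps Esrp2 on the opposite strand, held 14575.91 counts over all libraries against 1714.57 for Esrp2. It averaged 240.0 ± 11 CPM in EBD2, 278 ± 12.1 in EBD5 and 199 ± 1.22 in EBD6. The expected counts of Esrp2 were whole in 0 of 9 libraries. Whether reads of Nfatc3 and Esrp2 were told apart was not tested.

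Esrp1 (ENSMUSG00000040728, chr4:11331933-11386783, minus strand) was the more abundant paralogue per kilobase in every group. It measured 100.1, 102 and 99.6 CPM in EBD2, 132, 139.6 and 147 in EBD5, and 129, 124 and 119 in EBD6. EBD2 lay below the other groups, which did not overlap each other. It was higher by 0.46 on the log2 scale for EBD5 against EBD2 (SE 0.06, edgeR adjusted p = 7.9e-05) and by 0.31 for EBD6 against EBD2 (SE 0.07, edgeR adjusted p = 0.00196). For EBD6 against EBD5 the value was -0.15, which did not pass (edgeR adjusted p = 0.057) but did under the offsets (-0.26, edgeR adjusted p = 0.00308). The ratio of Esrp1 to Esrp2 CPM was 10 to 15.1 in EBD2 libraries, 7.02 to 8.37 in EBD5 and 2.63 to 3.68 in EBD6. Epithelial markers moved with Esrp2, and with Esrp1 between EBD2 and EBD5: 4 of the 6 (Krt8, Krt18, Cldn6 and Cldn7) were higher in EBD5 and again in EBD6, the others, Cdh1 and Epcam, were lower or not called, none of the 6 was at 0, and their summed level was 802 to 877, 1274 to 1302 and 1407 to 1565 CPM. Their part in the Esrp values was not tested.

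Rbfox2 (ENSMUSG00000033565, chr15:77078990-77307004, minus strand) measured 129.9, 129 and 129 CPM in EBD2, 84.6, 79.3 and 91.2 in EBD5, and 181, 184 and 184 in EBD6. The groups did not overlap, with EBD5 lowest and EBD6 highest. Its log2 fold change was -0.62 (SE 0.07, edgeR adjusted p = 9.18e-06) for EBD5 against EBD2, 1.12 (SE 0.06, edgeR adjusted p = 1.14e-07) for EBD6 against EBD5 and 0.50 (SE 0.07, edgeR adjusted p = 6.66e-05) for EBD6 against EBD2, and under the offsets -0.58, 1.05 and 0.47. The summed neural markers had the same order of groups, 176 to 191, 96.5 to 101 and 247 to 261 CPM. Of the 6 tested neural markers 4 fell and 1 rose from EBD2 to EBD5, all 6 were higher in EBD6 than in EBD5, and Dcx, the seventh listed, averaged 0.657 CPM or less in each group. Their part in the Rbfox2 values was not tested.

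Mbnl1 and Mbnl2 were both highest in EBD5. Mbnl1 (ENSMUSG00000027763, chr3:60472830-60629750, plus strand) measured 42.4, 46.7 and 37 CPM in EBD2, 76.9, 71.2 and 84.4 in EBD5, and 35.5, 41.6 and 39.5 in EBD6. Only the EBD5 libraries stood apart, by a log2 fold change of 0.89 over EBD2 (SE 0.11, edgeR adjusted p = 2.45e-05) and -0.99 from EBD5 to EBD6 (SE 0.10, edgeR adjusted p = 8.85e-06), which were 0.57 and -0.47 under the offsets. Mbnl2 (ENSMUSG00000022139, chr14:120275669-120431697, plus strand) measured 99.4, 105 and 103 CPM in EBD2, 170.3, 169.7 and 188 in EBD5, and 126, 116 and 116 in EBD6. Its groups did not overlap, and EBD6 lay between the others. Its log2 fold change was 0.76 (SE 0.07, edgeR adjusted p = 2.38e-06) for EBD5 against EBD2, -0.53 (edgeR adjusted p = 2.64e-05) for EBD6 against EBD5 and 0.23 (edgeR adjusted p = 0.0171) for EBD6 against EBD2. The last of these was lost without EBD2 replicate 3 (edgeR adjusted p = 0.0652), by DESeq2 and under the offsets (edgeR adjusted p = 0.0616).

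Ptbp1 (ENSMUSG00000006498, chr10:79854427-79864771, plus strand) passed in no comparison. It measured 369, 375 and 401 CPM in EBD2, 385, 399.6 and 384 in EBD5, and 409, 385 and 393 in EBD6, and the groups overlapped throughout. The 95% intervals of its log2 fold change were -0.15 to 0.14, -0.09 to 0.19 and -0.11 to 0.20 in the 3 comparisons, so a change past a fold of 1.5 lay outside them. Under the offsets it was called lower in EBD6 than in EBD5 (-0.33, edgeR adjusted p = 0.00278). Ptbp2 (ENSMUSG00000028134, chr3:119718742-119784466, minus strand) measured 129, 133 and 146 CPM in EBD2, 157, 160.0 and 162 in EBD5, and 113, 108 and 104 in EBD6, and its groups did not overlap. Its log2 fold change was 0.19 (edgeR adjusted p = 0.0166), -0.54 (edgeR adjusted p = 1.85e-05) and -0.34 (edgeR adjusted p = 0.000988) in the order EBD5 against EBD2, EBD6 against EBD5 and EBD6 against EBD2. At 34.2% GC the longest Ptbp2 transcript is the poorest in GC among the members, and under the offsets the first value turned to -0.12 and the second shrank to -0.04, neither of them called, while the third was -0.15 (edgeR adjusted p = 0.037). The ratio of Ptbp1 to Ptbp2 CPM, without the offsets, was 2.76 to 2.86 in EBD2, 2.37 to 2.5 in EBD5 and 3.58 to 3.79 in EBD6. Under the offsets Ptbp1 changed by 0.14 and Ptbp2 by -0.12 for EBD5 against EBD2. For EBD6 against EBD5 they changed by -0.33 and -0.04, so both steps of the ratio then pointed the other way.

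GC content moved with the changes across genes in these libraries. Over 13746 protein-coding genes the Spearman correlation of GC content of the longest transcript with the log2 fold change was -0.37 for EBD5 against EBD2, 0.56 for EBD6 against EBD5 and 0.17 for EBD6 against EBD2, and over the 38 members it was -0.30, 0.60 and 0.39. These correlations run across genes of the same libraries and are given as descriptions. The members are poor in GC, with a median of 44.1% against 50% over the tested protein-coding genes. Its part in the members' changes was not tested beyond the fits with offsets given above.

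**Figure D4:**
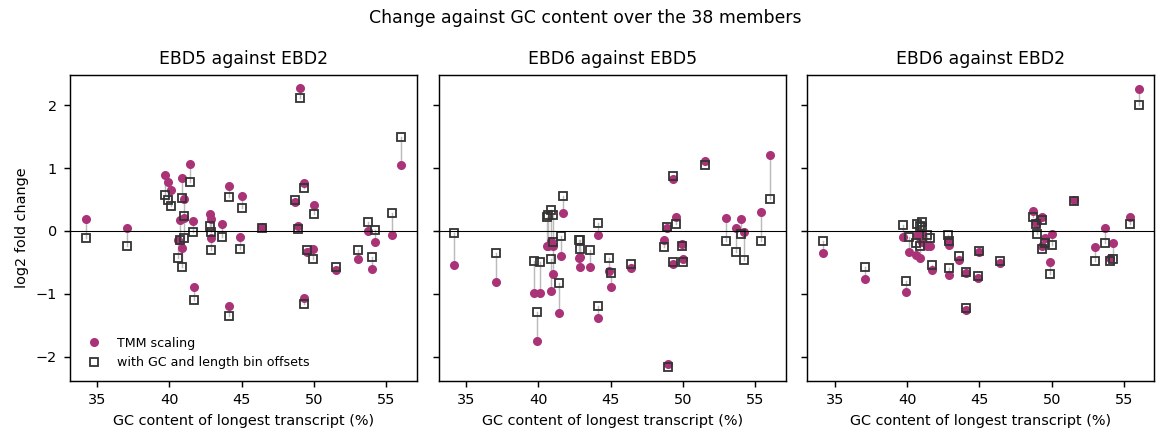
For each member the log2 fold change is plotted against the GC content of its longest transcript, as a filled point with TMM scaling and as an open square with GC and length bin offsets, joined by a line. The offsets move members under about 45% GC down for EBD5 against EBD2 and up for EBD6 against EBD5, and move Hnrnpf, Hnrnpm and Rbfox2 little.

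Processed pseudogenes, retrotransposed copies that can share reads with their parent gene, were matched by sequence to 16 of the members (68 copies, at least 90% identity over at least 60% of their length). Summed per member, copies of several members were highest in EBD5. For Hnrnpk, Hnrnpa1 and Srsf3 nearly all of these EBD5 counts lay in a single copy. Gm7964 held 1038, 776 and 1023 counts in EBD5 replicates 1 to 3 for Hnrnpk, and Gm10052 476, 492 and 489 for Hnrnpa1. Gm9761 held 156, 174 and 158 for Srsf3. The other Hnrnpk copy, Gm4130, had 5, 7 and 8 counts in EBD2 and 2, 3 and 2 in EBD5. The 2 Hnrnpk copies took 13.6, 14.7 and 16.7 CPM in EBD2, 190, 133 and 197 in EBD5, and 12.2, 12.1 and 13.0 in EBD6. As a percentage of the Hnrnpk count they made 3.2% in EBD2, 31.4% in EBD5 and 3.2% in EBD6. From EBD2 to EBD5 the share went from 1.0% to 18.4% for Srsf5, from 1.05% to 14% for Hnrnpa1, from 0.79% to 9.11% for Hnrnpc and from 1.26% to 5.8% for Srsf3, and was 0.49%, 0.92%, 0.83% and 1.77% in EBD6. For Hnrnpa3 and Hnrnpf, whose own levels were highest in EBD5, the share was 4.93% and 5.82% in EBD2 against 1.61% and 0.73% in EBD5. Whether reads of the parents were counted in their copies was not tested. With the copies' counts added to their parents, all 82 calls of the members held. The log2 fold change of Hnrnpk for EBD5 against EBD2 went from 0.19 to 0.54, that of Srsf5 from 0.65 to 0.88 and that of Hnrnpa1 from 0.71 to 0.88.

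**Figure D5:**
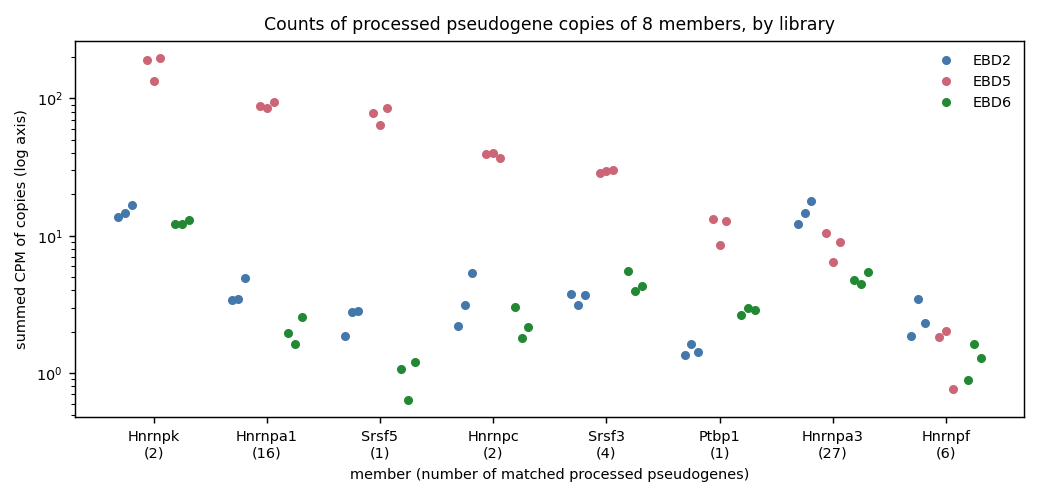
Points are the summed CPM of the processed pseudogene copies matched to 8 members in each library, on a log axis, with the number of copies under each name. The sums for Hnrnpk, Hnrnpa1, Srsf5, Hnrnpc, Srsf3 and Ptbp1 are highest in the 3 EBD5 libraries, and those for Hnrnpa3 are highest in EBD2. A sum does not show which copy holds the counts.

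Factors that work with the SR and hnRNP proteins were read from lists that were chosen with earlier results of these data known. Over all tested genes 34.9% were higher and 35.1% lower for EBD5 against EBD2. These shares were 36.9% and 33.3% for EBD6 against EBD5, and 33.8% and 32.3% for EBD6 against EBD2. Under the offsets they were 33.8% and 34%, 32.2% and 31.1%, and 35.3% and 35.8%. Of 13 SR-related co-activators, 7 passed as higher and 1 as lower for EBD5 against EBD2, 11 as lower for EBD6 against EBD5, and 9 as lower and 1 as higher for EBD6 against EBD2. Their median log2 fold changes were 0.21, -0.62 and -0.33. Luc7l2, a U1-associated protein, averaged 326 ± 22.2 CPM in EBD2, 615 ± 30.4 in EBD5 and 290.1 ± 26.1 in EBD6, and Rnps1, a component of the exon junction complex, 67.7 ± 3.83, 123 ± 17 and 58.1 ± 10.02. Both were higher in EBD5 than in EBD2 and lower in EBD6 than in EBD5 (log2 fold change of Luc7l2 0.90 and -1.07, or 0.68 and -0.70 under the offsets, of Rnps1 0.85 and -1.11). Of 8 tested SR protein kinases, EBD5 had 3 higher and 1 lower than EBD2 (1 and 2 under the offsets), and EBD6 had 5 lower and 1 higher than EBD5 (4 and 2). Prpf4b fell from 412 ± 22.8 CPM in EBD5 to 236 ± 19.9 in EBD6 (log2 fold change -0.80) and Srpk2, which phosphorylates the tails of SR proteins, from 192 ± 3.15 to 120.5 ± 4.26 (-0.66). Under the offsets these were -0.30 for Prpf4b and -0.16 for Srpk2. Dyrk1a was higher in all 3 comparisons, also under the offsets, at 93.5 ± 3.17, 134 ± 2.16 and 151 ± 6.35 CPM.

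Among core spliceosome factors of U2 and the tri-snRNP more were lower than higher in EBD5 against EBD2. Over all tested genes 34.9% were higher and 35.1% lower in that comparison, and 36.9% and 33.3% for EBD6 against EBD5. Of 13 factors of the U4/U6.U5 tri-snRNP and its activation, 9 fell and 1 rose from EBD2 to EBD5, and 10 rose and 1 fell from EBD5 to EBD6. Their median log2 fold changes were -0.62 and 0.36. Sart1, a tri-snRNP protein, averaged 134 ± 5.52, 54 ± 2.36 and 132 ± 13.6 CPM in EBD2, EBD5 and EBD6, and Prpf19, the core of the complex that activates the spliceosome, 187 ± 11.9, 88.5 ± 9.84 and 181 ± 8.993. Of 14 factors of U2 and the 3′ splice site, 8 fell and 2 rose from EBD2 to EBD5, the former including Sf3a2 at 112 ± 5.02, 29.3 ± 2.66 and 116 ± 2.11 CPM (log2 fold change -1.94 and then 1.99, or -1.20 and 0.97 under the offsets). From EBD5 to EBD6, 7 of these 14 rose and 4 fell, with 5 and 3 under the offsets. The 10 U1 and Sm proteins were mixed, with 3 that rose and 4 that fell between the same groups. Snrpg, a subunit of the Sm ring, averaged 16.1 ± 1.77, 78.9 ± 13.1 and 25.7 ± 7.06 CPM, and Snrnp70, the U1 protein that SR proteins contact, 499 ± 6.65, 232 ± 11.4 and 323 ± 39, though its rise from EBD5 to EBD6 (0.49) was -0.16 and not called under the offsets. The longest transcripts of these lists were richer in GC than the members (median 50.9% for U4/U6.U5, 49.9% for U2 and 45.6% for the co-activators). Under the offsets the U4/U6.U5 list gave 9 lower and 1 higher for EBD5 against EBD2 and 8 higher and 2 lower for EBD6 against EBD5, and the co-activators gave 6 higher and 3 lower, then 8 lower and 1 higher.

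Of 28 other tissue-regulated splicing factors 25 were tested. Among all tested genes 34.9% were higher and 35.1% lower for EBD5 against EBD2. The shares were 36.9% and 33.3% for EBD6 against EBD5, and 33.8% and 32.3% for EBD6 against EBD2. From EBD2 to EBD5, 10 rose and 7 fell (9 and 9 under the offsets), from EBD5 to EBD6, 7 rose and 12 fell (10 and 9), and from EBD2 to EBD6, 8 rose and 10 fell (8 and 10). Rbm47, a partner of the RNA-editing enzyme Apobec1, had the largest rise, from 13.5 ± 0.769 CPM in EBD2 to 110.4 ± 2.61 in EBD5 and 109.8 ± 1.35 in EBD6 (log2 fold change 3 and 3.01 over EBD2). Mbnl3, the third muscleblind gene, averaged 6.02 ± 2.02, 22.5 ± 1.495 and 41.1 ± 2.34 CPM and was therefore, unlike Mbnl1 and Mbnl2, highest in EBD6. Tia1, which binds uridine-rich stretches after weak 5′ splice sites, averaged 209 ± 7.28, 389 ± 4.40 and 161 ± 0.0764 CPM. Celf4 fell from 51.2 ± 1.97 CPM in EBD2 to 26.9 ± 2.5 in EBD5 and 9.2 ± 0.71 in EBD6. Its log2 fold change was -0.95 and then -1.5, or -1.03 and -1.48 under the offsets. Rbm20, known for its role in titin splicing in the heart, fell less, from 32.4 ± 4.41 CPM in EBD2 to 11.5 ± 2.24 in EBD6 (log2 fold change -1.44). The 10 factors of nonsense-mediated decay gave 2 higher and 5 lower for EBD5 against EBD2, and 6 higher and 4 lower for EBD6 against EBD5, or 3 and 5, then 5 and 3 under the offsets. Smg1, the kinase of Upf1, averaged 363 ± 4.18, 540.2 ± 14 and 224 ± 11.9 CPM, and Upf1 itself 209 ± 6.92, 143 ± 2.12 and 280.2 ± 3.660. Under the offsets the Upf1 value for EBD5 against EBD2 went from -0.56 to -0.13, not called (edgeR adjusted p = 0.0944), and that for EBD6 against EBD5 from 0.98 to 0.29.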

How the data were processed

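The deposited table holds RSEM's expected counts for each gene in 9 libraries: the authors' estimates of reads, of which 90.9 to 94.6% per library were whole. Poly-A RNA from Trizol extracts went into KAPA libraries, per the labels' protocols. The submitters' processing notes name the build mm10 and, with no role stated, STAR 2.7.10a, RSEM 1.3.30, cutadapt 1.18, DESeq2 1.38.3 and edgeR 3.40.2. The sources used here do not give the annotation release, the strand setting or the instrument of each library. The row MR3, which names no gene (at most 0.0157% of a library), was left out.

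Rounded counts were fitted with edgeR 4.0.16 (R 4.3.3): filterByExpr (16168 of 54232 genes kept), TMM scaling, all 3 groups in 1 quasi-likelihood fit of 7 samples without covariates (4 residual degrees of freedom), and Benjamini-Hochberg adjustment over all tested genes, with calls at an adjusted p under 0.05. Near-identical libraries were sought by chi-square, using genes with 20 counts or more. CPM values use TMM-scaled library sizes. Levels of genes were ranked only per kilobase of merged exons, while sums and ratios of CPM are not scaled for length and were compared between groups only. The depth of 5453412 to 11703371 counts limits the precision of the scarce members. GENCODE M21 held 99.7% of the IDs, and promoter windows came from RefSeq (GRCm38.p6). Only the main edgeR fit, for EBD5 against EBD2, was run on simulated counts. These had changes in a small part of the genes and no trend with GC content. They therefore cannot speak for the alternative fits or for data where most genes change.

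Alternatives were limma-voom (limma 3.58.1), DESeq2 1.42.0, its size factors within edgeR, no filter, at least 5 CPM in 3 libraries, only the compared groups, 9 separate libraries, EBD5 replicates 1 and 3 as 1 sample, the replicate block, a fold of 1.5, offsets from 10 GC by 5 length bins (protein-coding genes), the same with the block, pseudogene counts added to their parents, and leaving out each library. The members, gene lists and markers were chosen with earlier results of these data known. Values in every library are given for the 6 called members with the largest change and no overlap per comparison, for the 7 named regulators, and for the 3 highest and 3 lowest members per kilobase. From each gene list up to 2 genes per direction with the largest change may be named.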

Additional observations from a re-analysis of the deposited data

How the results depend on the processing

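Of the 82 calls of members, 26 held in every alternative and 54 in every one but the test against a fold of 1.5. limma-voom, no filter and added pseudogene counts kept all 82, DESeq2 kept 74, and leaving out 1 library ended 16. The GC and length offsets kept 59, while 14 were no longer called and 9 turned sign. Together with the replicate block the offsets kept 62. A fold of 1.5 left 7 members higher and 3 lower for EBD5 against EBD2, 3 and 9 for EBD6 against EBD5, and 1 and 3 for EBD6 against EBD2, and 2972 and 2634, 2844 and 2473, and 2655 and 2263 of all genes. The 8 members higher in EBD6 than in EBD5 became 4 with DESeq2 size factors, 5 with DESeq2, 3 in a fit of only those groups, 5 with 9 separate libraries and 4 with EBD5 replicates 1 and 3 as 1 sample. Leaving out 1 library gave 15 to 18 higher and 7 to 10 lower for EBD5 against EBD2, 3 to 8 and 22 to 25 for EBD6 against EBD5, and 3 to 5 and 16 to 24 for EBD6 against EBD2. For all genes these ranges were 5151 to 6071 and 5089 to 6040, 5403 to 6279 and 4877 to 5440, and 4901 to 5848 and 4601 to 5248. Where that left 1 sample in a group, it was taken to vary like the others.

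No pairing by replicate number was seen: same-numbered libraries correlated at -0.09 to 0.05 in their deviations from the group means. Where libraries of a group differed only by sampling noise, this check could detect little, so a pairing is not excluded. With the replicate block (9 libraries) 5 members were higher in EBD6 than in EBD5 and 26 lower, and 5 higher and 23 lower in EBD6 than in EBD2.

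With GC and length offsets, and with these plus the replicate block, values called in either fit turned sign for EBD5 against EBD2 in Hnrnpa0 (0.28 and 0.26), Hnrnph1 (-0.23 and -0.20), Hnrnpr (-0.11 and -0.13), Ptbp2 (-0.12 and -0.10), Hnrnpk (-0.018, offsets alone), and Hnrnpll (-0.15) and Ptbp1 (0.17), which were called only with the block. For EBD6 against EBD5 they turned in Srsf1 (0.23 and 0.21), Srsf4 (-0.17 and -0.19), Hnrnpa0 (-0.17 and -0.20), Hnrnpll (0.26 and 0.23), Hnrnpr (0.26 and 0.23), Hnrnpu (0.34 and 0.31), Hnrnpul1 (-0.053 and -0.12) and Ptbp1 (-0.33 and -0.36), and for EBD6 against EBD2 in Ptbp1 (-0.18, called only with the block). The cause was not tested.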
